A study of Homo sapiens with 15 samples.

Results

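The genes described here encode the proteins of the mitochondrial ribosome whose symbols begin with MRPL or MRPS. The prefixes stand for the large and the small subunit. Subunits are assigned here by symbol alone, which need not match a protein's place in the ribosome. They were taken by symbol from the array's probe-to-gene table, with the probe set of the highest mean over all arrays standing for a gene, which gave 73 genes (48 MRPL and 25 MRPS) of 14884 genes tested. RefSeq lists 77 protein-coding genes with such symbols. MRPL12, MRPS6, MRPS18C and MRPS24 are not analysed here.

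Levels were measured in HEK293T cells, an established line from human embryonic kidney, transfected with siRNA to LOC550643 (a pool of 4 siRNAs), Dcp2, DcpS or GAPDH or with a non-silencing siRNA, which matches no human gene. There were 3 Affymetrix whole-transcript arrays in each of the 5 groups, 15 in all. All cells, the non-silencing controls included, received actinomycin D, a blocker of transcription, at 1 ug per mL for 4 hours starting 48 hours after transfection, so each level reflects transcript made before the block and its decay. LOC550643 encodes NoBody, a small protein of the decapping complex, Dcp2 is the decapping enzyme, DcpS is the scavenger enzyme for caps left after decay, and GAPDH is an enzyme of glycolysis. By the design text, Dcp2 served as the related comparison and DcpS and GAPDH as unrelated ones, so that the specificity of the response to LOC550643 siRNA could be judged.

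Mitochondrial ribosomes translate the few messages of mitochondrial DNA, which encode core subunits of the respiratory chain and ATP synthase. The ribosomal RNAs come from mitochondrial DNA, whereas every ribosomal protein is encoded in the nucleus, translated in the cytosol and imported. Many nuclear genes for mitochondrial proteins have promoters without a TATA box that bind NRF1, GABP (an ETS family factor) or YY1, and mitochondrial ribosomal protein genes are a classic example.

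The promoters of the 10 members that passed the test over the 5 groups given below are shown, as the stretch in which the elements just named can be looked for. RefSeq promoter windows (GRCh38.p14, 250 bases before to 50 bases after the start) matched 65 of the 73 members by symbol, these 10 among them. The stretches run from base -110 to base -1 before the start, 5′ to 3′ on the gene's strand, with matches to the cores of NRF1, ETS factors or YY1 on either strand in capitals. MRPL9, MRPL11, MRPL34 and MRPS7 hold no such match here or elsewhere in the window. MRPL17 holds a pair of NRF1 cores, MRPL36 an NRF1 and a YY1 core, MRPL27 a pair of ETS cores, MRPL48 and MRPL54 1 ETS core each and MRPS34 3 ETS cores.
MRPL9 (chr1:151763497-151763606, minus strand): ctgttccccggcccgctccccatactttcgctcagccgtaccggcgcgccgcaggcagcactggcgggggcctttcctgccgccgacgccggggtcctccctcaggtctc
MRPL11 (chr11:66438849-66438958, minus strand): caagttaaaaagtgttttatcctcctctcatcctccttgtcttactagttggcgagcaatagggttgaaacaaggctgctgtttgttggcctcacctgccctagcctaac
MRPL34 (chr19:17292463-17292572, plus strand): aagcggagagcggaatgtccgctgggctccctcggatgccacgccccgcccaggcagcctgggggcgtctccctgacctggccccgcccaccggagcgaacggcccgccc
MRPS7 (chr17:75261769-75261878, plus strand): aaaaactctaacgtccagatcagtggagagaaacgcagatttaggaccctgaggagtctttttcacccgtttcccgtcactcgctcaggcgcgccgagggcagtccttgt
MRPL17 (chr11:6683341-6683450, minus strand): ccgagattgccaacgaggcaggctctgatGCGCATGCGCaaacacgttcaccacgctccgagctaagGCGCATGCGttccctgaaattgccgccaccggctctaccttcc
MRPL36 (chr5:1799838-1799947, minus strand): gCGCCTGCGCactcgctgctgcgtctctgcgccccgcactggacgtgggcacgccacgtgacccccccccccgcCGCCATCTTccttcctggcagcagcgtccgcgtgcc
MRPL27 (chr17:50373185-50373294, minus strand): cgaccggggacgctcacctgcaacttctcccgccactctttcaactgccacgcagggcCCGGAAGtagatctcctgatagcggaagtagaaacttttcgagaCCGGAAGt
MRPL48 (chr11:73787764-73787873, plus strand): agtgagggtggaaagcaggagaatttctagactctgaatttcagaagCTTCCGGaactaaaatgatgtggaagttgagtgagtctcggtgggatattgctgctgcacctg
MRPL54 (chr19:3762572-3762681, plus strand): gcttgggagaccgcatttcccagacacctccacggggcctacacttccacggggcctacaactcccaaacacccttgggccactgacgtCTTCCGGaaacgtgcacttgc
MRPS34 (chr16:1773135-1773244, minus strand): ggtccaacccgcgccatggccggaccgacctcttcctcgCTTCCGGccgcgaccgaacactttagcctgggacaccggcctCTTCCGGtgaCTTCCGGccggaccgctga

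The motifs searched on both strands were GCGCANGCG for NRF1, CCGGAAG for ETS factors, AAGATGGCG for YY1, TATAAA for the TATA box, GGGCGGGG for the Sp1 GC box and CCAAT. Among the 65 member promoters, 28 (43.1%) held the ETS core, against 14.2% of 15843 protein-coding promoters of the same length. The YY1 core was in 12 (18.5%), against 2.74%, and the NRF1 core also in 12 (18.5%), against 11.02%. Any of these 3 cores was in 43 members (66.2%), against 24.7% of all promoters, and no member held overlapping matches of different cores. The TATA sequence was in 2 member promoters (3.08%), against 9.63%. The Sp1 box was in 24 (36.9%, against 31.6%) and CCAAT in 19 (29.2%, against 36.4%). Median GC content was 60.3% in the members and 62.7% in all promoters. A match is a description of letters in a window, not a bound site.

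**Figure D1:**
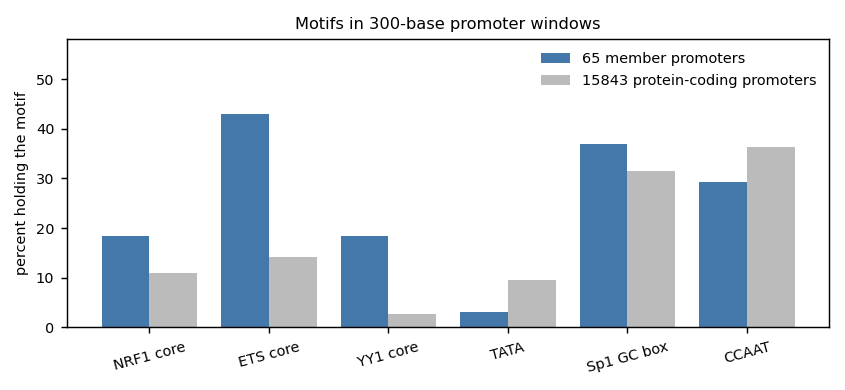
The bars give the percentage of promoter windows holding each motif on either strand, blue for the 65 member promoters and grey for 15843 protein-coding promoters. The ETS core (43.1% against 14.2%) and the YY1 core (18.5% against 2.74%) were in a larger share of member promoters, and the TATA sequence in a smaller one (3.08% against 9.63%). The NRF1 and YY1 cores were shortened after a first search.

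Many members share a start region with a neighbour on the other strand. A head-to-head protein-coding gene began within 1000 bases of 17 of the 65 members (26.2%), against 10.3% of all protein-coding genes. MRPL46 and MRPS11, 1 gene of each subunit, form such a pair with starts 320 bases apart. MRPS12 lies 181 bases from SARS2, the mitochondrial seryl-tRNA synthetase, MRPL49 49 bases from FAU, which encodes a cytoplasmic ribosomal protein, MRPL27 45 bases from EME1 and MRPL18 210 bases from TCP1, a chaperonin subunit.

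Array medians ran from 4.01 to 4.08 log2 units over 53617 probe sets. The labels do not state whether a group's 3 samples were grown separately, so the p-values here capture the spread among these samples alone, and it may be technical. The targeted transcripts were lower under their own siRNA. DCP2 stood at 6.34 ± 0.10 under Dcp2 siRNA and 8.14 ± 0.13 under non-silencing siRNA, and GAPDH at 5.97 ± 0.24 under GAPDH siRNA and 7.20 ± 0.10 under non-silencing siRNA (SD, n = 3 each). DCP2 was also lower under DcpS siRNA, at 7.60 ± 0.27 (SD, n = 3; log2 difference -0.54, SE 0.13, limma adjusted p = 0.0252), a call lost on removing DcpS replicate 1 or 2, or control replicate 2 or 3 (adjusted p 0.0735 to 0.102). Under LOC550643 siRNA it was at 8.54 ± 0.13 (SD, n = 3), above the control arrays without overlap (0.40, SE 0.13, limma adjusted p = 0.148). No probe set was named for LOC550643 or DCPS, and their knockdown is not analysed here. The brightest line genes were LIN28B (7.998 to 8.75), IRS4 (8.12 to 9.78) and KRT18 (8.50 to 8.91). The others, PAX2, LHX1, GATA3, SOX2 and KRT8, had means of 5.65, 5.81, 5.98, 6.27 and 6.06 over the 15 arrays. These means lay below that of the blood cell marker CD68 (6.65), and all but that of SOX2 below the muscle marker DES (6.14). All 8 measured line genes, of 12 listed, lay above the array medians. Of 9 measured markers of other cell types, CD14 (3.10 to 3.74), DCN (2.28 to 2.58), LUM (2.78 to 3.93) and ALB (3.25 to 3.72) stayed below those medians on all arrays, whereas CD68 (6.04 to 7.50), DES (5.34 to 7.13), THY1 (4.87 to 5.40), APOA1 (4.70 to 5.40) and TTR (5.08 to 5.59) lay above them. In bulk RNA, fewer cells of a type and less RNA per cell cannot be told apart.

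Differences among the siRNA groups were small and reached a minority of the members. In limma's moderated F test over the 5 groups, 10 of the 73 members passed an adjusted p of 0.05, against 12.2% of all genes: MRPL9, MRPL11, MRPL17, MRPL27, MRPL34, MRPL36, MRPL48, MRPL54, MRPS7 and MRPS34. In the 10 pairwise comparisons 13 members were called at least once, against 16.8% of all genes, which added MRPL10, MRPL22, MRPS9 and MRPS15 and left out MRPS34. Against non-silencing siRNA alone 4 members were called, against 7.46% of all genes. All 3 shares of members lay near the background. The range between the highest and lowest group mean had a median of 0.31 log2 units over the members and ran from 0.06 in MRPL19 to 0.59 in MRPL11. It was above 0.5 in 5 members, MRPL11, MRPL54, MRPL34, MRPL9 and MRPL17, against 14.2% of all genes.

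**Figure D2:**
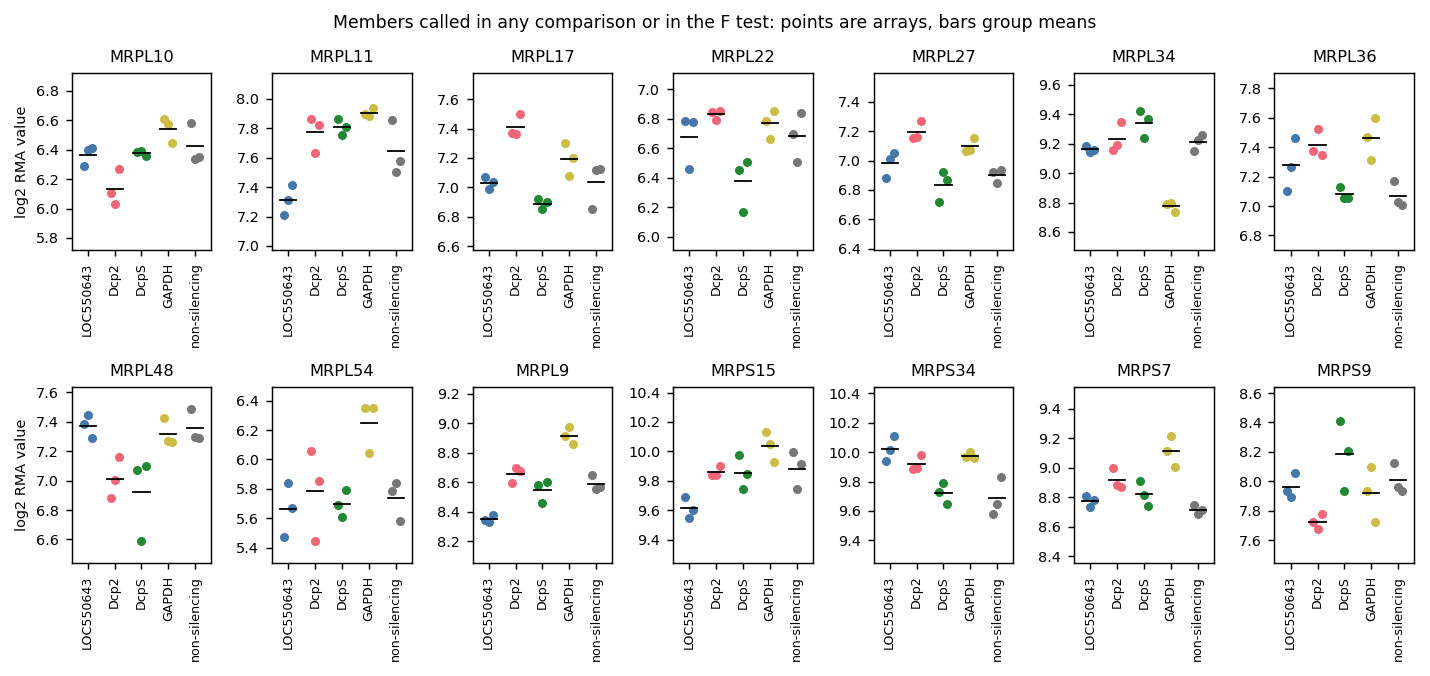
Each panel plots the log2 RMA value of 1 of the 14 members called in a pairwise comparison or in the F test, with 1 point per array, 3 arrays per siRNA group and a bar at the group mean; the axes span like ranges but start at different levels. MRPL34 is low in the GAPDH siRNA arrays (8.73 to 8.80), MRPL9 is high there (8.86 to 8.97) and low under LOC550643 siRNA (8.33 to 8.38), and MRPL17 is high under Dcp2 siRNA (7.36 to 7.50).

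MRPL9 encodes a protein of the large subunit related to bacterial L9. Its values were 8.34, 8.33 and 8.38 log2 units in the LOC550643 arrays, 8.59, 8.70 and 8.67 in the Dcp2 arrays and 8.58, 8.46 and 8.60 in the DcpS arrays. They were 8.91, 8.97 and 8.86 in the GAPDH arrays and 8.65, 8.55 and 8.57 in the non-silencing arrays. The 3 GAPDH arrays lay above all others and the 3 LOC550643 arrays below all others, with the other groups overlapping between them. LOC550643 and GAPDH siRNA thus stood 0.57 log2 units apart (LOC550643 lower, SE 0.08, 1.48-fold, limma adjusted p = 0.000592). That call held in every alternative run, with adjusted p between 0.000107 and 0.0230. MRPL9 was also lower under LOC550643 than Dcp2 siRNA (log2 difference -0.31, SE 0.08, limma adjusted p = 0.0443) and under DcpS than GAPDH siRNA (-0.37, SE 0.08, adjusted p = 0.00906). Against non-silencing siRNA it rose by 0.32 (SE 0.08) under GAPDH siRNA (limma adjusted p = 0.0437). The last call was lost without any of the 6 arrays (adjusted p 0.0718 to 0.157), and so was the call against Dcp2 siRNA (adjusted p 0.0701 to 0.153).

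MRPL11, a protein of the factor-binding stalk base that contacts elongation factors, had the widest range of group means. Its values were 7.21, 7.31 and 7.41 in the LOC550643 arrays, 7.86, 7.63 and 7.82 in the Dcp2 arrays and 7.87, 7.75 and 7.81 in the DcpS arrays. The GAPDH arrays read 7.90, 7.88 and 7.94 and the non-silencing arrays 7.85, 7.50 and 7.58. All LOC550643 arrays lay below the other 12, and all GAPDH arrays above the other 12, the closest being a DcpS array at 7.87. MRPL11 was lower under LOC550643 siRNA than under GAPDH siRNA by 0.59 (log2 difference -0.59, SE 0.10, limma adjusted p = 0.00289). It was lower than under DcpS siRNA (-0.50, SE 0.10, adjusted p = 0.00676) and Dcp2 siRNA (-0.46, SE 0.10, adjusted p = 0.0196, limma). Against non-silencing siRNA the value was -0.33 (SE 0.10, limma adjusted p = 0.135), with no overlap of the arrays. The call against Dcp2 siRNA was lost without LOC550643 replicate 1 or 2 or Dcp2 replicate 1 or 3 (adjusted p 0.0685 to 0.114), whereas the calls against DcpS and GAPDH siRNA were kept without each array in turn.

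MRPL34, a small protein that binds ribosomal RNA, ran the other way. Its values were 9.19, 9.14 and 9.15 in the LOC550643 arrays, 9.16, 9.19 and 9.35 in the Dcp2 arrays and 9.42, 9.24 and 9.37 in the DcpS arrays. The GAPDH arrays read 8.79, 8.80 and 8.73, and the non-silencing arrays 9.15, 9.23 and 9.26. The GAPDH arrays were the lowest by a clear gap, their highest value being 8.80 and the lowest of the other 12 arrays 9.14. MRPL34 fell by 0.43 log2 units against non-silencing siRNA (SE 0.08, 1.35-fold, limma adjusted p = 0.0105). It was higher under LOC550643 (0.39, SE 0.08, adjusted p = 0.0136), Dcp2 (0.46, SE 0.08, adjusted p = 0.00577) and DcpS siRNA (0.57, SE 0.08, limma adjusted p = 0.000580) than under GAPDH siRNA. These comparisons share the GAPDH arrays. The call against non-silencing siRNA was lost without non-silencing replicate 2 (adjusted p = 0.05001) and that against LOC550643 siRNA without LOC550643 replicate 1 (limma adjusted p = 0.0598), whereas that against DcpS siRNA held in every alternative run (adjusted p 9.37e-05 to 0.0212).

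MRPL17, which lies near the exit of the peptide tunnel, was high under Dcp2 siRNA. Its values were 7.37, 7.36 and 7.50 in the Dcp2 arrays, 7.07, 6.99 and 7.04 in the LOC550643 arrays and 6.92, 6.85 and 6.90 in the DcpS arrays. The GAPDH arrays read 7.30, 7.08 and 7.20 and the non-silencing arrays 6.85, 7.12 and 7.13. Every Dcp2 array lay above the other 12, and 1 non-silencing array was as low as the DcpS arrays. MRPL17 rose by 0.38 against non-silencing siRNA (SE 0.09, 1.30-fold, limma adjusted p = 0.0487), and was higher under Dcp2 than DcpS siRNA by 0.52 (SE 0.09, adjusted p = 0.00347) and lower under LOC550643 than Dcp2 siRNA (-0.38, SE 0.09, adjusted p = 0.0370). The call against non-silencing siRNA was lost on removing any Dcp2 array, or replicate 1 or 2 of the control (limma, 0.0866 to 0.225), and that against LOC550643 siRNA without any of the 6 arrays (0.0709 to 0.132). The call against DcpS siRNA was kept without each array in turn.

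MRPL54, a protein found only in mitochondrial ribosomes, was among the dimmest members. Its values were 6.35, 6.04 and 6.35 in the GAPDH arrays, 5.48, 5.84 and 5.67 in the LOC550643 arrays and 5.69, 5.61 and 5.79 in the DcpS arrays. The Dcp2 arrays read 6.06, 5.44 and 5.85 and the non-silencing arrays 5.79, 5.84 and 5.58. A Dcp2 array passed the lowest GAPDH value, and the LOC550643, DcpS and non-silencing arrays all lay below the GAPDH arrays. MRPL54 was lower under LOC550643 than GAPDH siRNA (log2 difference -0.58, SE 0.14, limma adjusted p = 0.0317) and under DcpS than GAPDH siRNA (-0.55, SE 0.14, adjusted p = 0.0344). Against non-silencing siRNA the GAPDH value was 0.51 (SE 0.14, limma adjusted p = 0.0921). The first call was lost without LOC550643 replicate 1 or 3 or GAPDH replicate 1 or 3 (adjusted p 0.0753 to 0.159), and the second without any DcpS array or GAPDH replicate 1 or 3 (0.0529 to 0.126).

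The remaining large subunit calls involved DcpS or Dcp2 siRNA. MRPL22 and MRPL27, proteins of the tunnel region and of the peptidyl transferase centre, were higher under Dcp2 than DcpS siRNA, by 0.46 (SE 0.12, limma adjusted p = 0.0314) and 0.36 (SE 0.08, adjusted p = 0.0197). MRPL27 values were 7.15, 7.16 and 7.27 in the Dcp2 arrays and 6.72, 6.92 and 6.87 in the DcpS arrays, and MRPL22 values 6.85, 6.79 and 6.85 against 6.45, 6.16 and 6.51. The groups did not overlap in either gene. The MRPL22 call was lost without any Dcp2 array or DcpS replicate 1 or 2 (adjusted p 0.0615 to 0.123), and the MRPL27 call without Dcp2 replicate 3 or DcpS replicate 1 (0.0821 to 0.0980). MRPL48, a mitochondria-specific protein, read 7.38, 7.44 and 7.29 in the LOC550643 arrays and 7.07, 6.59 and 7.10 in the DcpS arrays. The DcpS arrays were lower, 1 of them far lower than the other 2, and the groups did not overlap (log2 difference 0.45, SE 0.13, limma adjusted p = 0.0432). The MRPL48 call was lost without any LOC550643 array or DcpS replicate 2 (adjusted p 0.0684 to 0.169).

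MRPL10, which anchors the stalk, read 6.10, 6.03 and 6.27 in the Dcp2 arrays, below every other array, and 6.61, 6.58 and 6.44 in the GAPDH arrays (log2 difference -0.41, SE 0.09, limma adjusted p = 0.0271). MRPL36, a small rRNA-binding protein, read 7.13, 7.05 and 7.06 in the DcpS arrays and 7.47, 7.32 and 7.60 in the GAPDH arrays (-0.38, SE 0.10, adjusted p = 0.0411, limma). In both genes the GAPDH arrays were the higher group without overlap. The MRPL10 call was lost without Dcp2 replicate 1 or 2 or GAPDH replicate 1 or 2 (adjusted p 0.106 to 0.130), and the MRPL36 call without any DcpS array or GAPDH replicate 1 or 3 (0.0720 to 0.157).

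Among the small subunit genes, MRPS7, a protein of the head of the subunit, had the most called differences. Its values were 9.11, 9.22 and 9.003 in the GAPDH arrays, 8.75, 8.69 and 8.71 in the non-silencing arrays and 8.81, 8.73 and 8.78 in the LOC550643 arrays. The Dcp2 arrays read 9.001, 8.88 and 8.87 and the DcpS arrays 8.91, 8.81 and 8.74. The GAPDH arrays were the highest, although the lowest of them lay only just above the highest Dcp2 array. MRPS7 rose by 0.40 under GAPDH against non-silencing siRNA (SE 0.08, 1.32-fold, limma adjusted p = 0.0209), and was lower under LOC550643 than GAPDH siRNA (-0.34, SE 0.08, adjusted p = 0.0310). The first call was lost without GAPDH replicate 1 or 2 or any non-silencing array (adjusted p 0.0526 to 0.0902), and the second without any LOC550643 array or GAPDH replicate 1 or 2 (0.0733 to 0.120).

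MRPS15, an rRNA-binding protein, read 9.69, 9.55 and 9.60 in the LOC550643 arrays and 10.13, 10.05 and 9.93 in the GAPDH arrays. The LOC550643 arrays lay below all others, and the difference from GAPDH siRNA was -0.42 (SE 0.09, limma adjusted p = 0.0163), a call lost without LOC550643 replicate 2 or GAPDH replicate 1 or 2 (adjusted p 0.0525 to 0.0766). MRPS9, a protein of the head, read 7.72, 7.68 and 7.78 in the Dcp2 arrays and 8.41, 7.94 and 8.21 in the DcpS arrays. The Dcp2 arrays were lower without overlap (-0.46, SE 0.12, limma adjusted p = 0.0330), and the call was lost without any Dcp2 array or DcpS replicate 1 or 3 (adjusted p 0.0688 to 0.154). MRPS34, a mitochondria-specific protein, passed only the F test (adjusted p = 0.0364, limma). Its values were 9.94, 10.02 and 10.11 in the LOC550643 arrays, 9.73, 9.79 and 9.65 in the DcpS arrays and 9.58, 9.65 and 9.83 in the non-silencing arrays, so that LOC550643 was the highest group, above DcpS and non-silencing siRNA without overlap (against non-silencing 0.34, SE 0.09, adjusted p = 0.0725, limma).

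Against the non-silencing control, LOC550643 siRNA changed 0 of the 73 members in limma, against 1.57% of all genes, and 10 members had an unadjusted p under 0.05, against 12.5%. The 5 largest differences were in MRPL50 (0.47), MRPL44 (0.36), MRPL42 (-0.34), MRPS34 (0.34) and MRPL11 (-0.33), with limma adjusted p from 0.0505 in MRPL50 to 0.179 in MRPL44. All 5 separated the 2 groups of arrays without overlap, as did 15 members in all, against 17% of all genes. A pseudogene, MRPL42P5, has a probe set of its own, at a mean of 3.13 beside 8.28 for MRPL42. The pseudogene's probe set differed by 0.57 where MRPL42 differed by -0.34, and cross-hybridization between them was not tested. MRPL50, a mitochondria-specific protein, read 8.17, 8.08 and 8.35 in the LOC550643 arrays and 7.51, 7.83 and 7.85 in the non-silencing arrays, which lay below all other 12 arrays of the study.

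Dcp2 siRNA changed 1 member, MRPL17, against 1.98% of all genes, and 20 members had an unadjusted p under 0.05, against 16.3%. The largest difference was in MRPL44, an RNase III-like protein of the large subunit, at 0.43 (SE 0.12, limma adjusted p = 0.0709). MRPL44 read 8.45, 8.54 and 8.40 in the Dcp2 arrays and 7.85, 7.97 and 8.28 in the non-silencing arrays, and the other 3 siRNA groups, which share that control, differed from it by 0.33 to 0.39. The fainter probe set of MRPL44, at a mean of 2.39, showed 0.03 under Dcp2 siRNA. MRPL49 (0.37), MRPL32 (0.37) and MRPL36 (0.35) followed, each without overlap and with limma adjusted p of 0.0719, 0.133 and 0.0956. In all, 22 members did not overlap, 17 higher and 5 lower, against 22.8%, 11.6% and 11.3% of all genes.

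DcpS siRNA changed 0 members in limma, against 3.61% of all genes, and 8 had an unadjusted p under 0.05, against 16.1%. Its largest differences were in MRPL24 (0.47, SE 0.16), MRPL48 (-0.44, SE 0.13), MRPL44 (0.39, SE 0.12), MRPL50 (0.34, SE 0.11) and MRPL22 (-0.31, SE 0.12), with limma adjusted p between 0.0694 and 0.188. MRPL24 read 8.05, 7.63 and 7.62 in the DcpS arrays and 7.68, 7.24 and 6.97 in the non-silencing arrays, which overlapped. Only 10 members separated the groups, against 18.5% of all genes.

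GAPDH siRNA changed 3 members, MRPL9 and MRPS7 higher and MRPL34 lower, against 2% of all genes. An unadjusted p under 0.05 was reached by 22 members, against 13.6%. The arrays did not overlap in 25 members, against 17.3% of all genes; 22 were higher, against 8.49%, and 3 lower, against 8.8%. Beside MRPL54, MRPL34 and MRPS7, the largest differences were in MRPS28 (0.44, SE 0.13, limma adjusted p = 0.126) and MRPL36 (0.39, SE 0.10, adjusted p = 0.0706), both without overlap. Without non-silencing replicate 2 no member was called, and 1 or 2 were called without any other single array. The fit of only the 6 compared arrays called 0 members for every siRNA against the control.

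**Figure D3:**
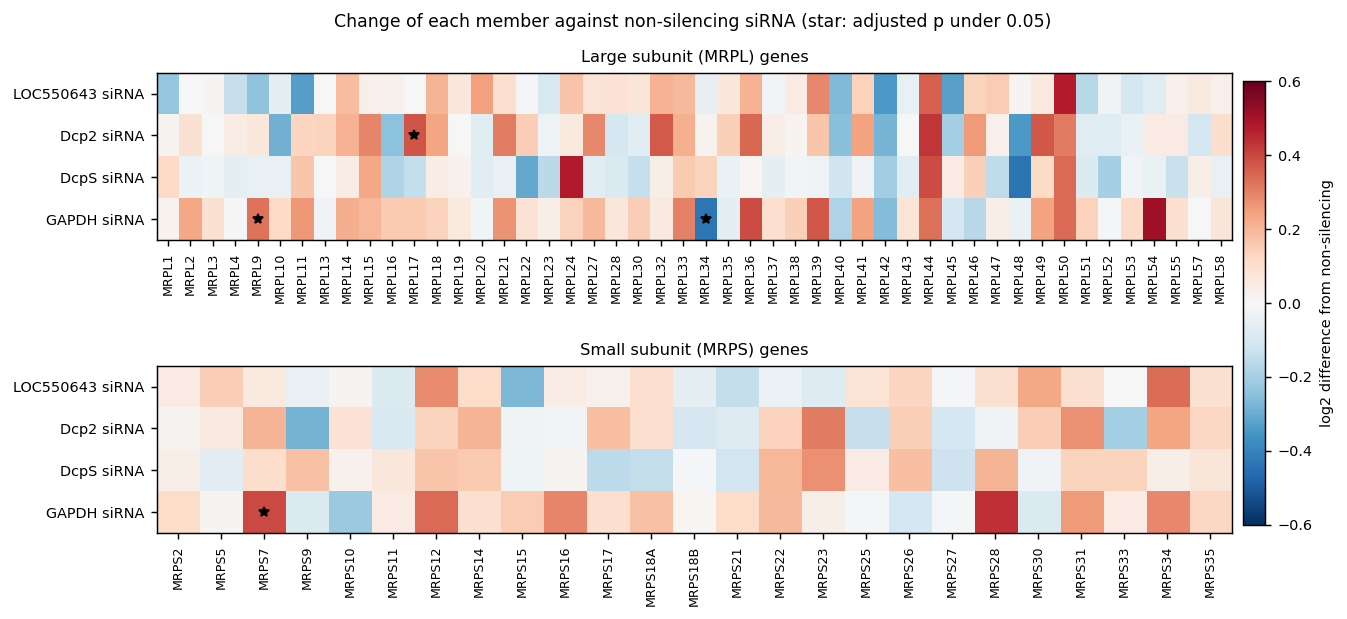
The map colours the log2 difference of each member from non-silencing siRNA, red higher and blue lower, with rows for the 4 targeting siRNAs and a star at an adjusted p under 0.05 in limma. The 4 stars mark MRPL17 under Dcp2 siRNA and MRPL9, MRPL34 and MRPS7 under GAPDH siRNA, and 56 of the 73 GAPDH cells are above 0.

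The direct comparisons of siRNAs, which share arrays among themselves, gave 2 to 6 called members. LOC550643 against GAPDH siRNA gave 6, of which MRPL34 was higher and MRPL9, MRPL11, MRPL54, MRPS7 and MRPS15 lower, against 4.08% of all genes. LOC550643 against Dcp2 siRNA gave 3, all lower (MRPL9, MRPL11 and MRPL17), against 3.2%. LOC550643 against DcpS siRNA gave 2, MRPL11 lower and MRPL48 higher, against 6.4%. Dcp2 against DcpS siRNA gave 4, MRPL17, MRPL22 and MRPL27 higher and MRPS9 lower, against 5.64%. Dcp2 against GAPDH siRNA gave 2, MRPL34 higher and MRPL10 lower, against 2.79%, and DcpS against GAPDH siRNA gave 4, MRPL34 higher and MRPL9, MRPL36 and MRPL54 lower, against 5.98%.

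Leaving out 1 array moved most of these counts. LOC550643 against Dcp2 siRNA kept 1 call without LOC550643 replicate 3 or Dcp2 replicate 2 and 0 without any other array. LOC550643 against DcpS siRNA kept 1 call without any LOC550643 array or DcpS replicate 2. LOC550643 against GAPDH siRNA gave 3 without LOC550643 replicate 1 and 4 without LOC550643 replicate 2 or GAPDH replicate 1 or 2. Dcp2 against DcpS siRNA gave 1 without Dcp2 replicate 3 and 2 without Dcp2 replicate 2 or DcpS replicate 1. Dcp2 against GAPDH siRNA gave 1 without Dcp2 replicate 1 or 2 or GAPDH replicate 2 and 4 without GAPDH replicate 3, and DcpS against GAPDH siRNA gave 2 without DcpS replicate 1 or 2. In the F test the count was 5 without GAPDH replicate 1 or non-silencing replicate 2 and 6 without LOC550643 replicate 2, any Dcp2 array or DcpS replicate 1.

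Some members were set apart in 1 siRNA group from all 12 other arrays. GAPDH siRNA had the most: 7 members lay above every other array (MRPL2, MRPL9, MRPL11, MRPL38, MRPL53, MRPS7 and MRPS16), against 1.12% of all genes, and MRPL34 lay below, against 1.64%. MRPL2, a core protein at the peptidyl transferase centre, read 10.30, 10.13 and 10.10 in the GAPDH arrays and at most 10.06 elsewhere. MRPL53, a mitochondria-specific protein, read 9.0003, 8.92 and 8.92 in the GAPDH arrays and 8.73, 8.72 and 8.73 in the LOC550643 arrays, the latter below all others. LOC550643 siRNA had 4 members below every other array (MRPL9, MRPL11, MRPL53 and MRPS15, against 1.52%) and MRPL20 above (against 1.28%). MRPL9, MRPL11 and MRPL53 were therefore at opposite ends under these 2 siRNAs.

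Dcp2 siRNA had MRPL17, MRPL27 and MRPL46 above every other array, against 1.38% of all genes, and MRPL10 below, against 1.67%. MRPL46, a mitochondria-specific protein, read 7.75, 7.69 and 7.77 in the Dcp2 arrays, and the highest other array was at 7.68. DcpS siRNA had 0 members above, against 2.06%, and MRPS17 below, against 2.04%. Non-silencing siRNA had 0 above, against 0.443%, and MRPL50 below, against 0.746%.

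**Figure D4:**
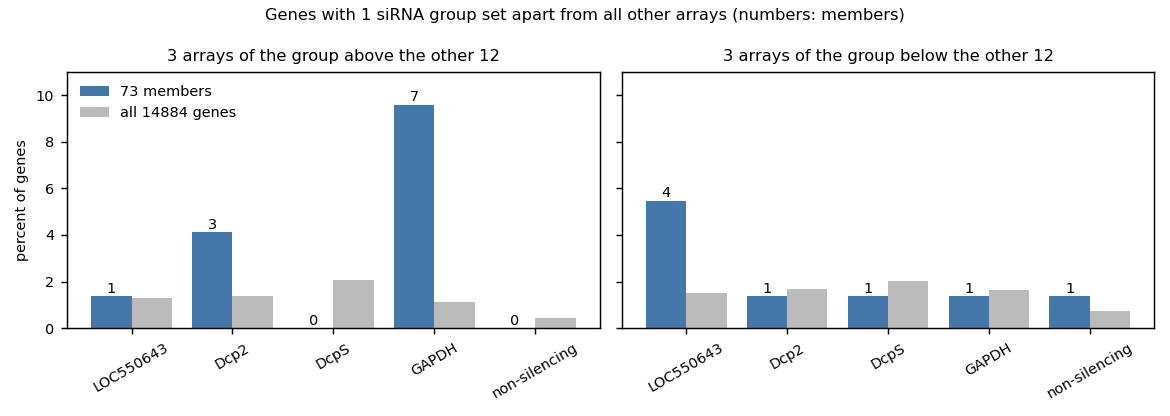
The bars give the percentage of genes whose 3 arrays of a group all lie above (left) or below (right) the other 12 arrays, blue for the 73 members, with their number on top, and grey for all 14884 genes. The members exceed the background most under GAPDH siRNA on the left (7 members, 9.59% against 1.12%) and under LOC550643 siRNA on the right (4 members, 5.48% against 1.52%). All genes had a lower mean level than the members, and no share over genes of similar level was computed.

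As a list, the members had a median difference from non-silencing siRNA of 0.10 log2 units under GAPDH siRNA, 0.05 under Dcp2 siRNA, 0.03 under LOC550643 siRNA and -0.02 under DcpS siRNA. The corresponding medians over all genes were 0.00, 0.00, -0.01 and 0.00. Positive differences were found in 56, 48, 46 and 35 of the 73 members, beside 50%, 50.3%, 48.1% and 50.5% of all genes. The GAPDH and Dcp2 medians kept their sign under both other scalings, whereas quantile normalization turned the small LOC550643 median to -0.004 and the DcpS median to 0.00. Leaving out each array in turn gave medians of 0.08 to 0.13 under GAPDH siRNA and 0.05 to 0.09 under Dcp2 siRNA. All 4 comparisons share the non-silencing arrays.

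The mean over the 73 members was 7.79, 7.76 and 7.69 log2 units on the GAPDH arrays and 7.68, 7.59 and 7.64 on the non-silencing arrays. It was 7.67, 7.64 and 7.69 on the LOC550643 arrays, 7.65, 7.71 and 7.74 on the Dcp2 arrays and 7.69, 7.57 and 7.69 on the DcpS arrays. The GAPDH arrays were all above the non-silencing arrays, with GAPDH replicate 3 within 0.01 of non-silencing replicate 1, and the other groups overlapped the control. By symbol, the median difference under GAPDH siRNA was 0.11 over the 48 MRPL and 0.10 over the 25 MRPS genes. Under DcpS siRNA it was -0.04 over the MRPL and 0.05 over the MRPS genes.

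**Figure D5:**
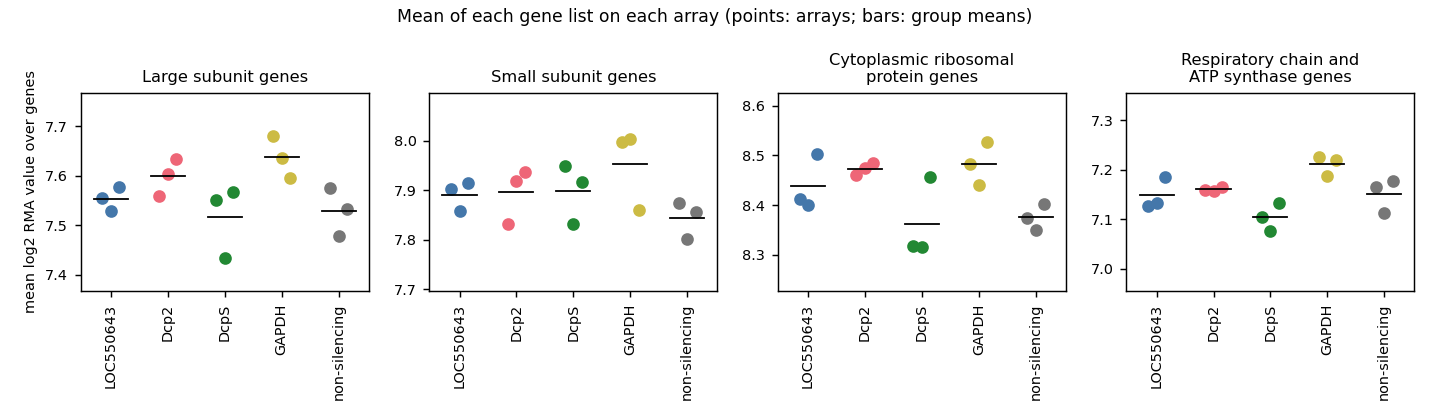
Each point is the mean log2 RMA value over the genes of a list on 1 array, by siRNA group, with a bar at the group mean. The lists are large subunit genes (MRPL symbols), small subunit genes (MRPS symbols), 53 cytoplasmic ribosomal protein genes and 30 respiratory chain and ATP synthase genes. The large subunit means on the GAPDH arrays (7.60 to 7.68) lie above the non-silencing arrays (7.48 to 7.58), while the small subunit means overlap, with GAPDH replicate 3 at 7.86.

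Cytoplasmic ribosomal protein genes gave like values. Their 53 measured genes had median differences from non-silencing siRNA of 0.04 (LOC550643), 0.07 (Dcp2), -0.01 (DcpS) and 0.09 (GAPDH) log2 units, with 1 gene called, under GAPDH siRNA. Under that siRNA 45 of the 53 had a positive difference, against 50% of all genes. Its arrays lay above the non-silencing arrays without overlap in 16 of them and below in 0, against 8.49% and 8.8% of all genes. The 30 nuclear genes for the respiratory chain and ATP synthase had medians of -0.01, 0.02, -0.05 and 0.04 in the same order, with 0 called in limma. An unadjusted p under 0.05 was reached by 1, 2, 4 and 3 of them, against 12.5%, 16.3%, 16.1% and 13.6% of all genes. Whether the lists differed from each other was not tested.

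Over the 15 arrays the members moved together only loosely. The median correlation between pairs of members was 0.16, beside 0.23 between cytoplasmic ribosomal protein genes and 0.09 between respiratory chain genes. A member correlated with the mean of the other members at a median r of 0.40, above 0.5 in 25 members and below 0 in 9. These are descriptions over n = 15 arrays that share 5 group means and the arrays' own quality. MRPL3 (0.83), MRPL39 (0.81), MRPL2 (0.78) and MRPL21 (0.77) followed the mean of the others most closely, and MRPL34 (-0.48) ran against it. The genes outside the list most like its mean were NME1-NME2 (0.90), XRCC6 (0.87), UQCC3 (0.82), UQCRC2 (0.82) and LHFPL5 (0.81).

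Replicate spread was modest. The pooled SD within groups had a median of 0.11 log2 units over the members and 0.13 over 4652 genes of similar level. The range of group means had a median of 0.31 over the members and 0.35 over those genes. Over all genes, whose mean level was lower on every array, the median pooled SD was 0.15 and the median range 0.27. The shares of all genes given here are therefore not matched to the members for level. A first axis of the deviations within groups, computed without the members, took up 24.7% of that variance, and 47 of the 73 members correlated with it positively (median r 0.26, beside 0.03 over all genes, its sign having been set by the members). Its part in the results was not tested beyond the fit with its score as a covariate.

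By level, MRPS21 (mean 11.04 over 15 arrays), MRPL37 (10.82), MRPL2 (10.00) and MRPS34 (9.87) had the brightest probe sets, and MRPL1 (4.92), MRPS27 (4.99), MRPL23 (5.26) and MRPL54 (5.83) the dimmest, which depends on the probes as well as the transcripts. MRPS18A and MRPS18B, paralogs that occupy different sites of the mitochondrial ribosome, were both measured. MRPS18A ranged from 7.58 to 8.13 and MRPS18B from 7.92 to 8.31, and neither was called in any comparison. MRPS18B had 7 probe sets with identical values, and MRPL44, MRPS2 and MRPS16 had 2 each.

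The other genes of mitochondrial translation were read in the same comparisons with non-silencing siRNA, in which 7.46% of all genes were called at least once. Of mitochondrial ribosome subunits with other symbols (DAP3, PTCD3 and CHCHD1, 3 of 5 listed genes measured), 0 were called against non-silencing siRNA in limma and 0 had an unadjusted p under 0.05. Among 23 measured of 26 assembly and rRNA modification factors, 1 was called: RCC1L, which acts in assembly of the mitochondrial ribosome, rose by 0.42 under Dcp2 siRNA (SE 0.09, limma adjusted p = 0.0279), to 8.07 ± 0.05 from 7.65 ± 0.05 (SD, n = 3 each). Averaging its probe sets gave 0.23 (adjusted p = 0.180), and the call was lost without any Dcp2 array or non-silencing replicate 1 or 2 (adjusted p 0.0700 to 0.107). Under GAPDH siRNA the assembly factors had a median difference of 0.18 with 20 of 23 positive, against 50% of all genes, and 0 called. An unadjusted p under 0.05 was reached by 8 of them, against 13.6% of all genes.

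Among 12 measured of 17 translation factors, LRPPRC, which stabilizes mitochondrial messages, rose by 0.34 under DcpS siRNA (SE 0.09, limma adjusted p = 0.0491). MTFMT, which formylates the initiator tRNA, fell by 0.57 under GAPDH siRNA (SE 0.14, limma adjusted p = 0.0477). Neither was kept without some single arrays: LRPPRC was lost on removing DcpS replicate 1 or 3, or replicate 2 or 3 of the control (adjusted p 0.108 to 0.166), and MTFMT without any GAPDH array or non-silencing replicate 1 or 3 (0.0641 to 0.186). Of the tRNA synthetase list only QRSL1 and GATB, subunits of the glutamyl-tRNA amidotransferase, were measured of 20, and GATB fell by 0.68 under LOC550643 siRNA (SE 0.16, limma adjusted p = 0.0372), a call lost without any of the 6 arrays (0.0524 to 0.187). Of 9 measured genes of mitochondrial DNA transcription, replication and RNA turnover 0 were called against non-silencing siRNA. An unadjusted p under 0.05 was reached by 2, 2, 0 and 3 for LOC550643, Dcp2, DcpS and GAPDH siRNA. The shares of all genes were 12.5%, 16.3%, 16.1% and 13.6%.

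Protein import brings the ribosomal proteins to the matrix. Of its 22 measured genes, of 26 listed, 4 were called in at least 1 comparison with non-silencing siRNA, against 7.46% of all genes. TOMM22, a receptor of the outer membrane, rose by 0.68 under GAPDH siRNA (SE 0.12, limma adjusted p = 0.00653) and by 0.51 under Dcp2 siRNA (SE 0.12, adjusted p = 0.0402). TOMM70, another receptor, and TIMM50, of the inner membrane, fell by 0.40 and 0.38 under GAPDH siRNA (SE 0.09 each, limma adjusted p = 0.0369 each). TOMM40, the outer membrane channel, fell by 0.48 under LOC550643 siRNA (SE 0.09, limma adjusted p = 0.0128). The TOMM22 call under GAPDH siRNA was kept without each array in turn. TOMM40 was lost without LOC550643 replicate 2 or non-silencing replicate 1 (adjusted p 0.0659 to 0.0757) and gave -0.32 as a mean of its probe sets (adjusted p = 0.0974). TOMM70 (0.0544 to 0.142), TIMM50 (0.0535 to 0.143) and TOMM22 under Dcp2 siRNA (0.0749 to 0.128) were lost without any of the 6 arrays.

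Of 6 measured regulators of nuclear genes for mitochondrial proteins, of 11 listed, only MYC was called against non-silencing siRNA. It fell by 0.68 under GAPDH siRNA (SE 0.11, limma adjusted p = 0.00321), to 5.71 ± 0.08 from 6.39 ± 0.13 (SD, n = 3 each). Of 10 measured stress response genes 0 were called against non-silencing siRNA. An unadjusted p under 0.05 was reached by 0, 3, 0 and 1 for LOC550643, Dcp2, DcpS and GAPDH siRNA. The shares of all genes were 12.5%, 16.3%, 16.1% and 13.6%. Of 17 measured short-lived transcripts, 7 were called higher under Dcp2 siRNA and 0 lower, against 1.05% and 0.927% of all genes. The largest differences were in GEM (1.47), JUN (1.42), ATF3 (1.41) and RHOB (1.33), with limma adjusted p of 0.00521 to 0.0230. Their SDs were 0.60, 0.42, 0.65 and 0.40 in the control arrays, beside 0.16, 0.08, 0.06 and 0.12 in the Dcp2 arrays (n = 3 each). With only the compared arrays, GEM and ATF3 were not called (limma adjusted p = 0.0512 and 0.0620). Under DcpS siRNA KLF10 (0.75, adjusted p = 0.0462) and under GAPDH siRNA RHOB (0.91, adjusted p = 0.0402) were the ones higher, in limma. MYC, which is also on this list, was called lower under GAPDH siRNA, as given above. ATF3 was lost without any Dcp2 array or non-silencing replicate 1 or 2 (adjusted p 0.0523 to 0.0987), KLF10 on removing DcpS replicate 2 or 3, or control replicate 1 or 2 (0.0862 to 0.174), and RHOB under GAPDH siRNA without GAPDH replicate 1 or 3 or non-silencing replicate 1 or 2 (0.0870 to 0.157).

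Some marker genes moved with some groups. CD68, 1 of 2 measured blood cell markers of 8 listed, rose by 1.10 under GAPDH siRNA (SE 0.11, limma adjusted p = 3.60e-05) and by 0.47 under Dcp2 siRNA (SE 0.11, adjusted p = 0.0349), while CD14 stayed between 3.10 and 3.74 on all arrays. The log2 of their summed signal on an array was 7.44 to 7.58 under GAPDH siRNA, 6.81 to 7.14 under Dcp2 siRNA and 6.37 to 6.60 under non-silencing siRNA. The line gene IRS4 fell by 1.18 under Dcp2 siRNA (SE 0.26, adjusted p = 0.0307), and LIN28B fell by 0.46 under DcpS siRNA (SE 0.10, limma adjusted p = 0.0153). No other line gene of the 8 measured was called against non-silencing siRNA. Under Dcp2 siRNA, CD68 was lost without any of the 6 arrays (adjusted p 0.0651 to 0.137) and IRS4 without any Dcp2 array or control replicate 1 or 2 (0.0587 to 0.150). LIN28B was lost without DcpS replicate 1 or 3 or control replicate 2 or 3 (limma adjusted p 0.0510 to 0.0792). The part of these genes in the members' values was not tested.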

How the data were processed

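Per the labels, total RNA was hybridized to Affymetrix whole-transcript arrays. The deposited values were log2 probe set levels, made by the authors with RMA and oligo per the submitters' processing notes; the base was inferred from the range, and their versions and the build are not given in the sources used here. RMA scales arrays to like distributions, so values are relative. Of 53617 probe sets, 16098 had 1 gene symbol, 0 had several and 37519 were unnamed here. The 14884 genes of all 15 arrays were fitted together with limma 3.58.1 in R 4.3.3, with 1 mean per group and 10 residual degrees of freedom. P-values were two-sided and Benjamini-Hochberg adjusted over all genes within a comparison, and a gene is called at an adjusted p under 0.05. The fit was also run on simulated data, drawn with independent normal spread and so without the within-group axis shared by these arrays. That run lends no support to the calls given here.

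The members and lists were chosen with earlier results of these data known. Named genes are members called in any comparison or in the F test, the 5 largest differences of each siRNA from non-silencing, the brightest and dimmest 4, the MRPS18 paralogs, up to 4 called genes of each list and the targets. Genes named for likeness to the members' mean are the 5 with the highest correlation, and members set apart in 1 group or at the ends of that correlation were named after their values were seen.

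The alternatives were a replicate block, quantile normalization, median centring, leaving out genes with a mean under 5, averaging probe sets, fitting only the compared arrays, a trended robust prior, an axis of within-group deviation as a covariate, limma's treat test against 0.2 log2 units, and each array left out in turn. Figures used matplotlib 3.10.9. The number of arrays limits the precision. Promoters came from RefSeq GRCh38.p14, and the NRF1 and YY1 cores were shortened by 1 and 2 bases after a first search. Arrays with the same replicate number were not paired in the main fit.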

Additional observations from a re-analysis of the deposited data

How the results depend on the processing

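Counts of called members depended on the settings more than directions did, and no named difference reversed in any alternative. Calls of LOC550643, Dcp2, DcpS and GAPDH siRNA against non-silencing (0, 1, 0 and 3 as reported) were 1, 0, 0 and 2 with the replicate block. With the axis score they were 3, 5, 3 and 5. That score averages 0 in each group and so takes up only spread. It was drawn from the deviations of these same arrays, so a rise in calls with it is no separate support. Without dim genes the calls were 2, 4 and 2 for the first 3 siRNAs, and with the trended prior 2 and 3 for LOC550643 and Dcp2. Quantile normalization gave 1 for LOC550643 and 0 for Dcp2; median centring, the compared arrays alone and treat gave 0 for Dcp2, and the last 2 gave 0 for GAPDH.

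Of the direct comparisons, LOC550643 against Dcp2 gave 5 without dim genes, 1 with median centring or its own arrays and 0 with treat. LOC550643 against DcpS gave 5 without dim genes or with the axis, 1 with quantile normalization or its own arrays and 0 with treat. LOC550643 against GAPDH gave 2 with its own arrays and 1 with treat. Dcp2 against DcpS gave 9 with the axis, 1 with its own arrays and 0 with treat. Dcp2 against GAPDH gave 6 without dim genes, 5 with the trended prior, 7 with the axis, 1 with its own arrays and 0 with treat, and DcpS against GAPDH 12, 9, 15, 2 and 1. The F test gave 18 without dim genes and 22 with the axis; treat has no F test.

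Without each array in turn, calls against non-silencing ranged from 0 to 1 (LOC550643), 0 to 3 (Dcp2), 0 to 1 (DcpS) and 0 to 2 (GAPDH). They ranged from 0 to 1 for LOC550643 against Dcp2, 1 to 3 against DcpS and 3 to 5 against GAPDH, from 1 to 3 for Dcp2 against DcpS and 1 to 4 against GAPDH, from 2 to 5 for DcpS against GAPDH, and from 5 to 9 in the F test. The medians ranged from 0.01 to 0.06 (LOC550643), 0.05 to 0.09 (Dcp2), -0.02 to 0.02 (DcpS) and 0.08 to 0.13 (GAPDH).

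The replicate block ended the calls of MRPL17 under Dcp2 (adjusted p = 0.05004, limma), MRPL9 under GAPDH against non-silencing (0.0642), MRPL9 in LOC550643 against Dcp2 (0.0615), MRPL36 in DcpS against GAPDH (0.0536) and LRPPRC under DcpS (0.0598). Same-numbered arrays of different groups had deviations correlated between -0.198 and 0.394 over 30 pairs, with r over 0.1 in 9. The axis score was above 0 on replicate 1 and below 0 on replicate 3 in every group except Dcp2 (-3.14 and 3.52). Pairs with different numbers were not set beside these, and whether the numbers pair the samples was not tested. The causes of the lost calls were not tested. With 3 arrays a group, the smallest called difference among the members was -0.31 log2 units (MRPL9, LOC550643 against Dcp2). Larger ones also went uncalled, such as MRPL54 under GAPDH against non-silencing siRNA (0.51, limma adjusted p = 0.0921). Differences both below and above that size may therefore have gone undetected.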
